A study of Arabidopsis thaliana with 19 samples.

Results

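The genes described here are 7 gibberellin (GA) 2-oxidases of *Arabidopsis thaliana* with a row in the table of expression values. They were chosen by gene family and AGI code and not by their values, though earlier results of these data were known. They are *GA2OX1* (AT1G78440), *GA2OX2* (AT1G30040), *GA2OX3* (AT2G34555), *GA2OX4* (AT1G47990), *GA2OX6* (AT1G02400), *GA2OX7* (AT1G50960) and *GA2OX8* (AT4G21200), 7 of the 21313 genes of the table. Below, the GA 2-oxidase genes are these 7. *GA2OX9* (AT5G58660) was also measured but was not among the chosen genes, and it is counted with the other GA-inactivating enzymes. Transcript levels were read on 19 ATH1 GeneChip arrays, on which a set of short probes reads each gene, from whole dormant seeds that had taken up water for 24 h. The genotypes were 4 near isogenic lines (NILs), each with a fragment of another accession at 1 *DELAY OF GERMINATION* (*DOG*) locus in a Landsberg *erecta* (L*er*) background, and L*er* itself as the wild type. NIL*DOG1* (n = 5 arrays), NIL*DOG2* (n = 3) and NIL*DOG3* (n = 3) carry fragments from Cvi, NIL*DOG6* (n = 3) carries a fragment from Kas-2, and L*er* (n = 5) carries none. All samples were labelled dormant, but the depth of dormancy differed between the lines: it was lower in NIL*DOG2* and higher in the other NILs than in L*er*. Genotype and depth of dormancy therefore cannot be told apart in the comparisons. The labels on treatment and the methods of the paper give imbibed seeds, as used here, whereas the label on RNA extraction names dry seeds. The expression values were not used to settle this. Each sample was a bulk of seeds from 8 plants, and each *DOG* locus was represented by a single line, so that the effect of the locus and of any other difference between that line and L*er* cannot be told apart.

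GAs are the hormones that allow seed germination, and abscisic acid counteracts them. GA 2-oxidases add a hydroxyl group at carbon 2 of GAs, which lowers the level of active GA. The GA 20-oxidases and GA 3-oxidases carry out the last steps of synthesis. In growing Arabidopsis tissue, transcripts of several GA 2-oxidases are known to increase after GA treatment while those of *GA20OX* and *GA3OX* genes decrease.

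The values were RMA-normalized log2 values, so that a difference of 1 is a doubling. In the 19 arrays the lower quartile of all genes lay between 3.11 and 3.27, the median between 4.63 and 4.92 and the upper quartile between 7.0 and 7.15. The 10 seed markers measured, with storage protein, oleosin and LEA genes among them, had mean levels over all arrays between 4.17 (*DOG1*) and 14.4 (*CRC*), with a median of 13.5. The 6 anther and pollen genes measured, which stand for genes not known from seeds, had mean levels between 2.73 and 4.86, with a median of 3.35. No detection calls were at hand, so these genes give the only view of the low end of the scale. The array labelled NIL*DOG6* replicate 1 stood apart. At the 34 genes of chromosome 3 at which NIL*DOG6* replicates 2 and 3 differed from L*er* at an adjusted p under 0.001, it was placed for each gene between the mean of L*er*, set to 0, and that of the same replicates, set to 1. Its median placement was 0.094, within the range of the single L*er* arrays (-0.060 to 0.114), and it lay nearer to L*er* for 31 of the genes. The main results on NIL*DOG6* are therefore given with and without it.

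The GA 2-oxidase genes lay in the lower part of the range of the arrays, except *GA2OX2*. *GA2OX1* and *GA2OX7* were below the lower quartile in each of the 19 arrays, and *GA2OX8* in 17 of them. *GA2OX2* was above the median of the array in all 19 arrays. *GA2OX9*, which is not among the 7, ranged from 5.28 to 7.21 and was also above the median of every array. *GA2OX3* was above the array median only in the 3 NIL*DOG2* arrays. *GA2OX4*, with a range of 3.26 to 4.04, and *GA2OX6*, with a range of 3.16 to 4.43, stayed within the span of the mean levels of the anther and pollen genes in every array. The plot of each array's values shows this separation.

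**Figure D1:**
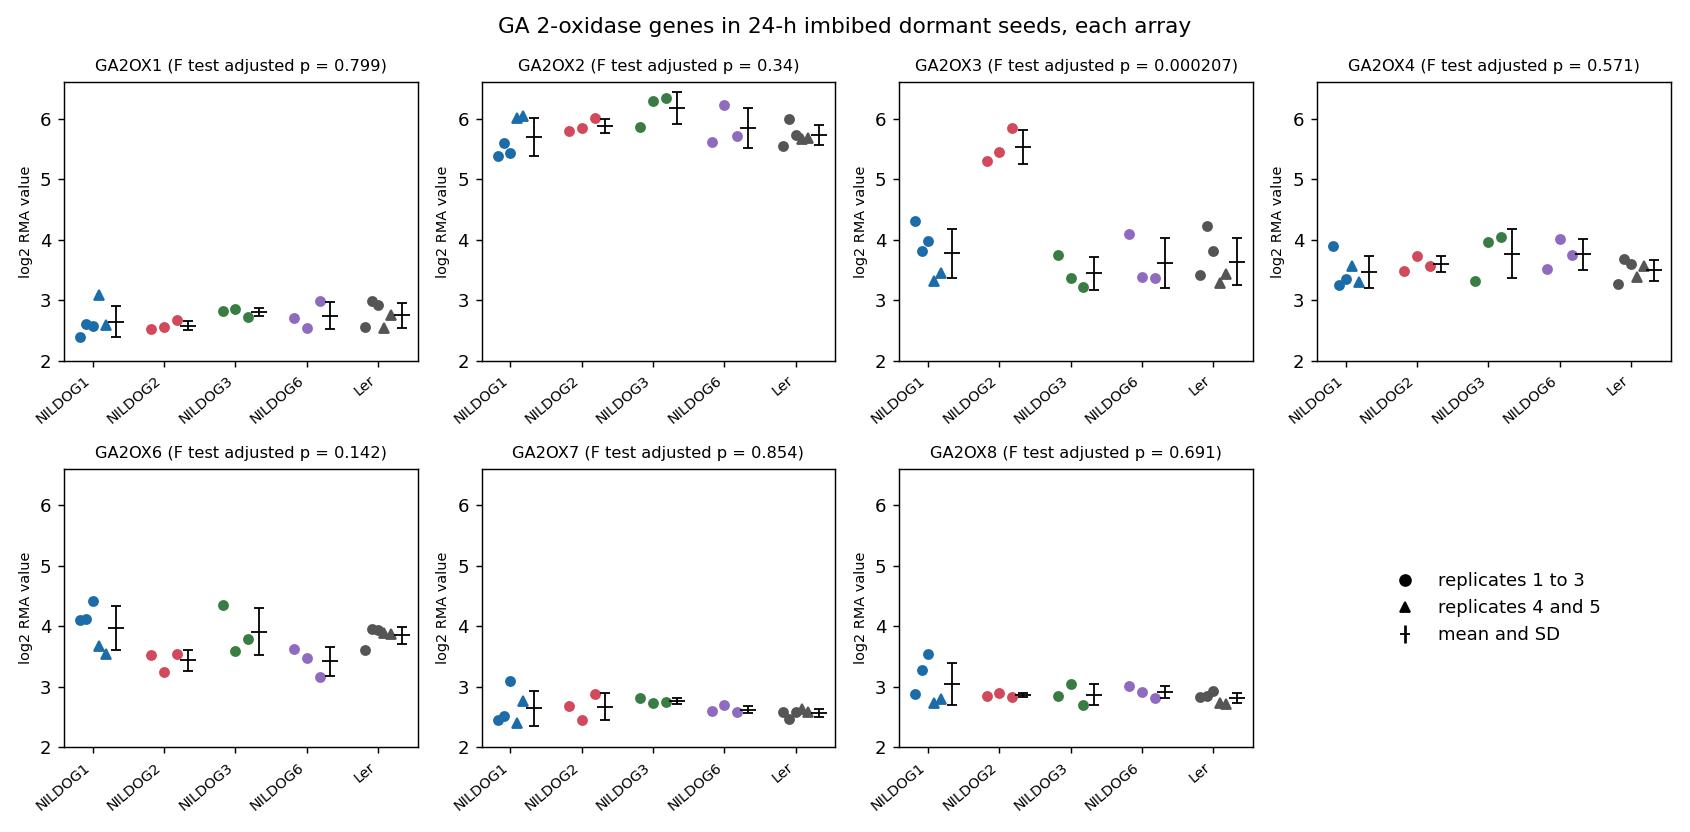
Log2 RMA value (y axis) of the 7 GA 2-oxidase genes in each array by genotype (x axis), with circles for replicates 1 to 3, triangles for replicates 4 and 5, and the mean with its SD in black; each title gives the adjusted p of limma's F test. Only the 3 NIL*DOG2* arrays of *GA2OX3*, between 5.30 and 5.84, stand clear of all other arrays of their gene.

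Of the 7 genes, *GA2OX3* was the one that differed between genotypes. Its level was 5.30, 5.45 and 5.84 in the NIL*DOG2* arrays, against 3.41, 4.23, 3.81, 3.28 and 3.43 in the L*er* arrays. The lowest NIL*DOG2* array thus exceeded the highest L*er* array by more than the whole range of L*er*, and the groups did not overlap. The mean was 5.53 ± 0.28 (SD, n = 3) in NIL*DOG2* and 3.63 ± 0.39 (SD, n = 5) in L*er*. The log2 difference was 1.89 with an SE of 0.24 and a 95% interval from 1.39 to 2.40, a 3.72-fold higher level in NIL*DOG2* (limma, Benjamini-Hochberg adjusted p = 0.000243). In NIL*DOG2*, 1 of the 7 GA 2-oxidase genes was called at an adjusted p under 0.05, against 0.305% of all genes tested (65 genes, 30 higher and 35 lower). Among all genes, *GA2OX3* had the 4th largest rise in NIL*DOG2* and ranked 17th by adjusted p.

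In no other NIL did the difference of *GA2OX3* from L*er* pass the test. NIL*DOG1* arrays had values of 4.31, 3.82, 3.97, 3.33 and 3.44, NIL*DOG3* arrays 3.75, 3.36 and 3.22, and NIL*DOG6* arrays 4.10, 3.38 and 3.37. Each of these sets overlapped the L*er* arrays. The highest of these arrays, NIL*DOG1* replicate 1, was still below the lowest NIL*DOG2* array. Against L*er*, NIL*DOG1* differed by 0.14 on the log2 scale (95% interval -0.30 to 0.58) and NIL*DOG3* by -0.19 (-0.70 to 0.31). NIL*DOG6* differed by -0.02 (-0.53 to 0.49), or by -0.26 (-0.80 to 0.28) without its replicate 1.

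The level of *GA2OX3* in NIL*DOG2* was also set against that in each of the other NILs. NIL*DOG1* minus NIL*DOG2* was -1.75 (95% interval -2.26 to -1.25, limma adjusted p = 0.000277). NIL*DOG3* minus NIL*DOG2* was -2.09 (-2.65 to -1.52, limma adjusted p = 0.000157). NIL*DOG6* minus NIL*DOG2* was -1.91 (-2.48 to -1.35, limma adjusted p = 0.000690), or -2.15 without NIL*DOG6* replicate 1, so that *GA2OX3* was lower in each of the other NILs. These pairs share the NIL*DOG2* arrays with the comparison with L*er* and are not independent of it. Of all genes, 2.56% were called between NIL*DOG1* and NIL*DOG2*, 3.2% between NIL*DOG3* and NIL*DOG2*, and 1.66% between NIL*DOG6* and NIL*DOG2* (6.78% without NIL*DOG6* replicate 1). In the order of means, NIL*DOG2*, NIL*DOG1*, L*er*, NIL*DOG6* and NIL*DOG3*, only NIL*DOG2* differed from its neighbour. Over all genotypes, the F test called *GA2OX3* alone of the 7 genes (limma adjusted p = 0.000207), against 6.39% of all genes, and it did so too without NIL*DOG6* replicate 1, against 9.91%.

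The spread of *GA2OX3* within genotypes was large for these data. Its SD within genotypes was 0.37, larger than that of 90.8% of all genes, whose median was 0.217. L*er* and NIL*DOG1* each had a second set of arrays, replicates 4 and 5. In replicates 4 and 5 the mean was 3.38 in NIL*DOG1* and 3.35 in L*er*, against 4.04 in NIL*DOG1* and 3.82 in L*er* in replicates 1 to 3. With the genotype as a term, *GA2OX3* was 0.56 lower in replicates 4 and 5 than in replicates 1 to 3 (limma adjusted p = 0.082), while 2.15% of all genes were called in this comparison and none of the 7. Without L*er* replicate 1 that difference was -0.66 and was called (limma adjusted p = 0.027). Since the other lines had only replicates 1 to 3, the comparison of NIL*DOG2* with L*er* was repeated with replicates 1 to 3 alone, where the difference was 1.71 (limma adjusted p = 0.0022).

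**Figure D2:**
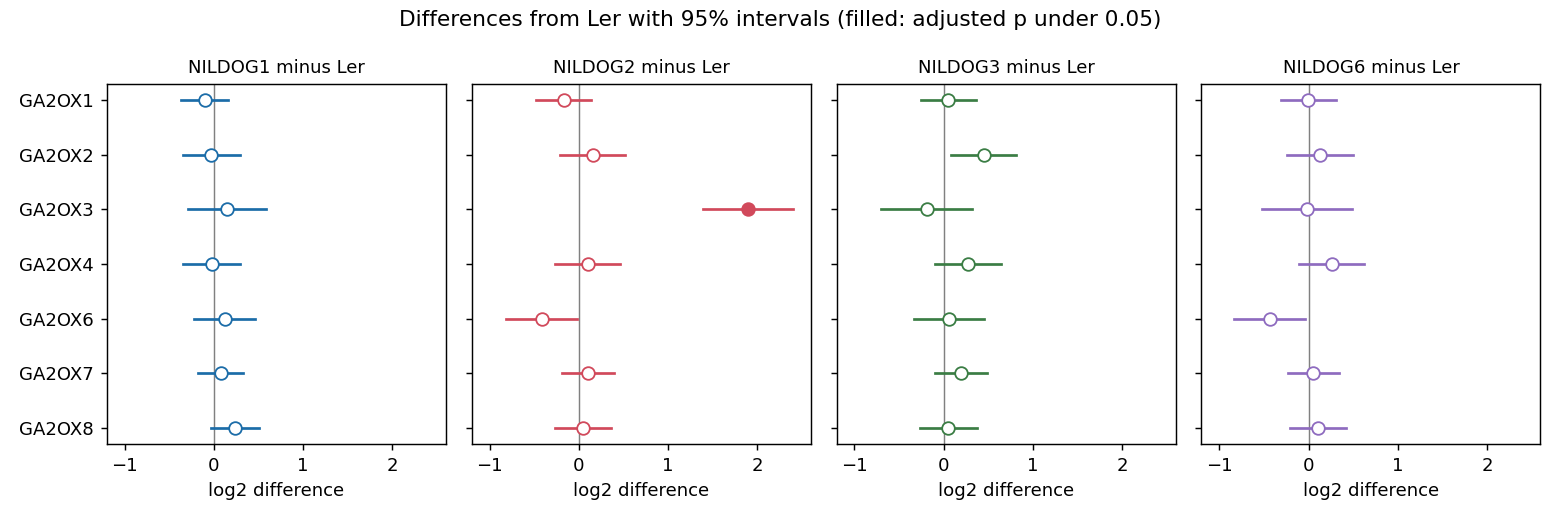
Log2 difference from L*er* (x axis) of each GA 2-oxidase gene (rows) in each NIL (panels), with 95% intervals of the limma fit; filled points passed an adjusted p under 0.05. *GA2OX3* in NIL*DOG2*, at 1.89, is the only filled point of the 28 shown.

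The other GA 2-oxidase genes were not called in any pair of genotypes. *GA2OX6* came closest. It had values of 3.53, 3.24 and 3.54 in NIL*DOG2*, and 3.62, 3.48 and 3.16 in NIL*DOG6*, against 3.62, 3.97, 3.94, 3.89 and 3.88 in L*er*. The NIL*DOG2* arrays all lay below the L*er* arrays, and the highest NIL*DOG6* array was level with the lowest L*er* array to the precision given. The NIL*DOG2* mean was 3.44 ± 0.17 and the NIL*DOG6* mean 3.42 ± 0.24 (SD, n = 3 each), against a mean of 3.86 ± 0.14 (SD, n = 5) in L*er*. The log2 difference from L*er* was -0.42 in NIL*DOG2* (95% interval -0.81 to -0.02, limma adjusted p = 0.711) and -0.44 in NIL*DOG6* (-0.83 to -0.04, limma adjusted p = 0.219). Without NIL*DOG6* replicate 1 it was -0.54 in NIL*DOG6* (limma adjusted p = 0.131). Of all genes, 5.41% had arrays that did not overlap between NIL*DOG2* and L*er*.

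In the remaining lines *GA2OX6* had values of 4.11, 4.12, 4.43, 3.68 and 3.54 in NIL*DOG1* and of 4.35, 3.60 and 3.80 in NIL*DOG3*, which overlapped those of L*er*. In 6 of the 10 pairs of genotypes its unadjusted p was under 0.05, but none of these pairs passed the adjustment. The largest difference was NIL*DOG6* minus NIL*DOG1*, at -0.55 (limma adjusted p = 0.130), or -0.66 without NIL*DOG6* replicate 1 (limma adjusted p = 0.0997), in a pair in which 2.6% of all genes were called (3.55% without NIL*DOG6* replicate 1). Within NIL*DOG1*, replicates 4 and 5 averaged 3.61 and replicates 1 to 3 averaged 4.22, while L*er* averaged 3.88 in replicates 4 and 5 and 3.84 in replicates 1 to 3. With replicates 1 to 3 of each genotype alone, *GA2OX6* was called higher in NIL*DOG1* than in NIL*DOG2*, by 0.78 (limma adjusted p = 0.0262), and lower in NIL*DOG6* than in NIL*DOG1*, at a difference of -0.80 (limma adjusted p = 0.0218). It was also called in the F test then (limma adjusted p = 0.0389).

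*GA2OX2* was the only one of the 7 genes with values above the median of every array. Its level was 5.87, 6.3 and 6.35 in NIL*DOG3*, against 5.54, 5.99, 5.74, 5.67 and 5.68 in L*er*. A single L*er* array, replicate 2, reached into the NIL*DOG3* range. NIL*DOG3* averaged 6.17 ± 0.26 (SD, n = 3), against 5.72 ± 0.16 (SD, n = 5) for L*er*, a difference of 0.45 that did not pass the adjustment (95% interval 0.08 to 0.81, limma adjusted p = 0.190). NIL*DOG3* had 0 of the 7 genes called, against 2.88% of all genes. NIL*DOG2* differed from L*er* by 0.15 (-0.21 to 0.52), NIL*DOG6* by 0.13 (-0.24 to 0.49; 0.25 without its replicate 1) and NIL*DOG1* by -0.03 (-0.35 to 0.29). In NIL*DOG1* the means were 6.03 in replicates 4 and 5 and 5.47 in replicates 1 to 3, while L*er* had means of 5.68 in replicates 4 and 5 and 5.76 in replicates 1 to 3. A test of whether the replicate sets differed unequally in these genotypes, chosen after the values were seen, called neither *GA2OX2* nor *GA2OX6* (limma adjusted p = 0.995 for each), and it called 0 of all genes, with 987 at an unadjusted p under 0.05.

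*GA2OX4* averaged 3.77 ± 0.40 (SD) in the 3 NIL*DOG3* arrays, 3.76 ± 0.25 in the 3 of NIL*DOG6*, 3.60 ± 0.12 in the 3 of NIL*DOG2*, 3.47 ± 0.26 in the 5 of NIL*DOG1* and 3.50 ± 0.17 in the 5 of L*er*. It differed from L*er* by 0.27 (95% interval -0.09 to 0.64) in NIL*DOG3* and by 0.26 (-0.11 to 0.62) in NIL*DOG6*, or by 0.38 (-0.03 to 0.79) in NIL*DOG6* without its replicate 1. Mean levels of *GA2OX1* were 2.80 ± 0.06 in NIL*DOG3*, 2.75 ± 0.22 in NIL*DOG6*, 2.58 ± 0.08 in NIL*DOG2*, 2.65 ± 0.26 in NIL*DOG1* and 2.75 ± 0.21 in L*er*, with the same numbers of arrays. No pair of genotypes reached an unadjusted p under 0.05 for either gene.

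*GA2OX7* lay between 2.40 and 3.1 in all arrays, and its largest difference from L*er* was 0.19 in NIL*DOG3* (95% interval -0.10 to 0.48), where the arrays did not overlap those of L*er*. In that comparison 11% of all genes had arrays that did not overlap. No GA 2-oxidase gene had arrays apart from those of L*er* in NIL*DOG1* (2.14% of all genes), nor in NIL*DOG6* with all its arrays (8.09%). Without NIL*DOG6* replicate 1, 2 of the 7 did, *GA2OX4* above and *GA2OX6* below the L*er* arrays, against 23.6% of all genes. *GA2OX8* had values of 2.89, 3.29, 3.54, 2.74 and 2.81 in NIL*DOG1*, against 2.83, 2.86, 2.93, 2.74 and 2.72 in L*er*. The high arrays of NIL*DOG1* were replicates 2 and 3, and the difference from L*er* was 0.24 (95% interval -0.03 to 0.51, limma adjusted p = 0.543). In the other NILs *GA2OX8* differed from L*er* by 0.05 to 0.10. For genes this low on the scale, a small change in transcript level may not have been detectable.

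Of the 7 genes, 1 was called in NIL*DOG2* and 0 in each of the other NILs, in NIL*DOG6* also without its replicate 1. In these other NILs the share of all genes called was 1.17% for NIL*DOG1*, 2.88% for NIL*DOG3* and 2.36% for NIL*DOG6*, or 8.39% without its replicate 1. At an unadjusted limma p under 0.05 there were 2 in NIL*DOG2* (6.78% of all genes), 1 in NIL*DOG6* (18.8%), 1 in NIL*DOG3* (17.1%) and 0 in NIL*DOG1* (10.9%). The median difference of the 7 genes from L*er* was 0.10 in NIL*DOG2*, 0.07 in NIL*DOG1*, 0.06 in NIL*DOG3* and 0.05 in NIL*DOG6*, while the medians over all genes lay between -0.00 and 0.02. Between the NILs, 3 values were called over 6 pairs and 7 genes, and all were *GA2OX3* against NIL*DOG2*. The pairs without NIL*DOG2* had 0 of the 7 genes called. Of all genes, 0.732% were called between NIL*DOG1* and NIL*DOG3*. The share was 0.455% between NIL*DOG6* and NIL*DOG3* (0.802% without NIL*DOG6* replicate 1). Between NIL*DOG6* and NIL*DOG1* it was 2.6% (3.55% without NIL*DOG6* replicate 1).

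The position of the genes was examined because each NIL carries an introgressed fragment. Gene order followed RefSeq's annotation of TAIR10.1 and no coordinates are given, since the expression table names genes by AGI code alone. *GA2OX6*, *GA2OX2*, *GA2OX4*, *GA2OX7* and *GA2OX1* lie on chromosome 1, *GA2OX3* on chromosome 2 and *GA2OX8* on chromosome 4. Of the 65 genes called between NIL*DOG2* and L*er*, 50 (76.9%) were on chromosome 1 and 5 on chromosome 2. On chromosome 1, 44 of them formed a run between AT1G01170 and AT1G14150 in which no gap exceeded 200 genes, and 4.06% of its genes were called.

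*GA2OX6* was gene 119 of 5496 on chromosome 1 and lay inside this run. Of its 50 nearest neighbours, 25 on each side, 3 were called in NIL*DOG2* (6%), all lower, against 0.305% of all genes. In the whole run, 24 of the called genes were higher and 20 lower. Whether sequence differences between the accessions altered the signal of the probes in this run was not tested. The called genes nearest to *GA2OX6* on each side were AT1G02330, 5 genes away with a log2 difference of -0.85, and AT1G02750, 25 genes away with -2.33. *GA2OX3* was gene 2303 of 3471 on chromosome 2, and none of its 50 nearest neighbours was called in NIL*DOG2*. The nearest called genes of chromosome 2 were 505 genes away on one side (AT2G40300) and 2070 genes away on the other (AT2G04040). For *GA2OX2* in NIL*DOG3*, 1 of its 50 neighbours was called (2%, against 2.88% of all genes).

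**Figure D3:**
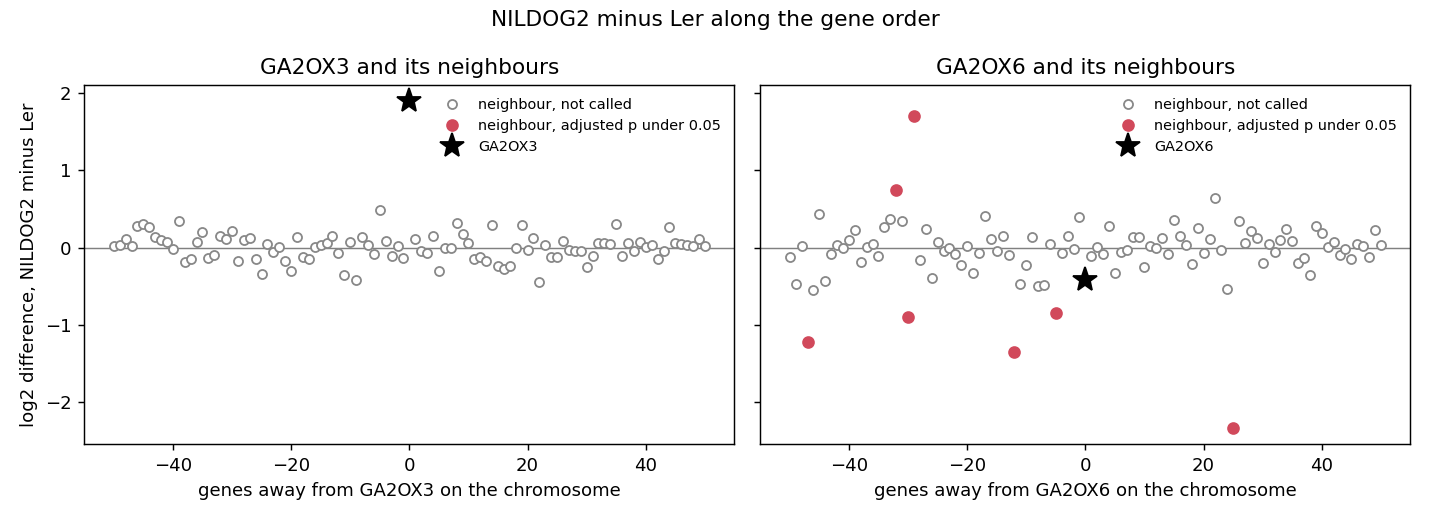
Log2 difference between NIL*DOG2* and L*er* (y axis) of *GA2OX3* (left) and *GA2OX6* (right), drawn as stars, and of the 50 genes on each side by their distance in genes (x axis); filled circles are neighbours called at an adjusted p under 0.05. *GA2OX3*, at 1.89, stands alone among 100 neighbours of which 0 were called, whereas 7 of the 100 neighbours of *GA2OX6* were called, 2 higher and 5 lower.

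The genes most like *GA2OX3* over the 19 arrays were found by Pearson's r over all genes of the table. They were AT1G06200 (r = 0.890), *CAT9* (AT1G05940, r = 0.866), which encodes an amino acid transporter, and *UGT72B3* (AT1G01420, r = 0.866), which encodes a glycosyltransferase. All lie on chromosome 1, as genes 441, 420 and 36 of its order, within the run of called genes. AT1G06200 and *UGT72B3* are themselves among the called genes that make up this run. The choice by r used the high NIL*DOG2* values of *GA2OX3*, so it favoured genes that are also higher in NIL*DOG2*. Their differences from L*er* in that line, given next, are therefore a description only. AT1G06200 averaged 10.6 ± 0.07 (SD, n = 3) in NIL*DOG2* and 9.99 ± 0.12 (SD, n = 5) in L*er*, a difference of 0.63 (limma adjusted p = 0.0106). *UGT72B3* averaged 4.31 ± 0.30 (SD, n = 3) in NIL*DOG2* and 3.31 ± 0.25 (SD, n = 5) in L*er*, a difference of 0.99 (limma adjusted p = 0.0034). *CAT9* averaged 7.87 ± 0.08 (SD, n = 3) in NIL*DOG2* and 7.33 ± 0.16 (SD, n = 5) in L*er*, a difference of 0.53 that did not pass the adjustment (limma adjusted p = 0.063). The likeness rested in part on the NIL*DOG2* arrays, since r over the other 16 arrays was 0.47 for AT1G06200, 0.54 for *CAT9* and 0.38 for *UGT72B3*. Arrays of the same genotype are not independent points in these correlations.

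Among the GA 2-oxidase genes themselves, r over the 19 arrays lay between -0.37 and 0.53 for the 21 pairs, with a median of -0.08. The highest was that of *GA2OX2* with *GA2OX4*, and it was the only pair above 0.5. *GA2OX3* and *GA2OX6* had r = -0.17 over the arrays as they were. With the mean of each genotype removed, their r was 0.64, the highest of the pairs on that scale. On that scale *GA2OX6* with *GA2OX8* (0.54) came next, and *GA2OX2* with *GA2OX6* was the lowest (-0.53). The arrays share replicate sets, and the part of these sets in the correlations was not tested.

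**Figure D4:**
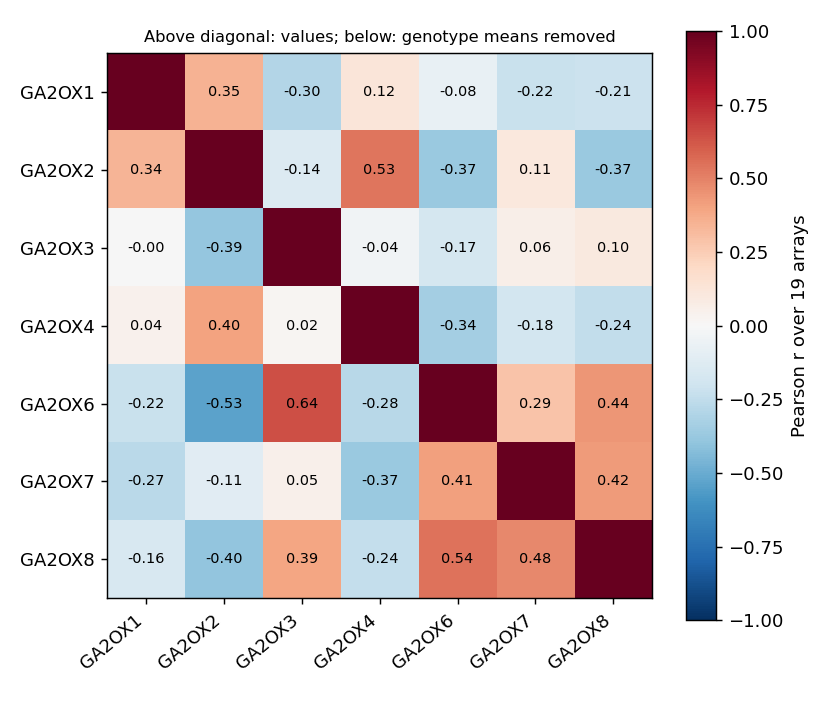
Pearson's r over 19 arrays for each pair of GA 2-oxidase genes, with values as deposited above the diagonal and with genotype means removed below it; the colour runs from -1 (blue) to 1 (red). The cell of *GA2OX3* and *GA2OX6* reads -0.17 above the diagonal and 0.64 below it.

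The rest of the GA pathway was described with 4 lists, of which 42 genes were measured. Of the other GA-inactivating enzymes, 4 of 6 listed genes were measured, *GA2OX9* among them, and 0 were called in any NIL against L*er*. Of the 14 GA biosynthesis genes, 2 were lower in NIL*DOG1* and 2 in NIL*DOG3*, while 0 were called in NIL*DOG2* and NIL*DOG6*. The shares of all genes called, against which these and the next counts stand, were 1.17% in NIL*DOG1*, 2.88% in NIL*DOG3*, 2.36% in NIL*DOG6* and 0.305% in NIL*DOG2*. Of the 10 genes of GA perception and signalling, 1 was lower in NIL*DOG6*, and of the 14 regulators acting on GA metabolism, 1 was lower in NIL*DOG3* and 1 in NIL*DOG6*. None of the 42 genes was called higher in a NIL.

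*GA20OX2* (AT5G51810), which encodes a GA 20-oxidase, had values of 3.3, 3.29, 3.23, 3.74 and 3.29 in NIL*DOG1* and of 3.26, 3.92 and 3.98 in NIL*DOG3*, against 4.53, 4.89, 4.27, 5.09 and 4.75 in L*er*. All arrays of these lines were below all L*er* arrays. Of all genes, 2.14% had arrays that did not overlap those of L*er* in NIL*DOG1*, 11% in NIL*DOG3* and 5.41% in NIL*DOG2*. *GA20OX2* fell by 1.33 in NIL*DOG1* (limma adjusted p = 0.00136) and by 0.99 in NIL*DOG3* (limma adjusted p = 0.0291). In NIL*DOG2* its values were 5.69, 5.63 and 5.37, all above the L*er* arrays, but the difference of 0.86 did not pass the adjustment (95% interval 0.36 to 1.36, limma adjusted p = 0.216). Between the NILs, *GA20OX2* was lower in NIL*DOG1* than in NIL*DOG2*, with a difference of -2.19 (limma adjusted p = 1.78e-05). It was also lower in NIL*DOG3* than in NIL*DOG2*, with a difference of -1.85 (limma adjusted p = 0.000536). NIL*DOG6* replicates 1, 2 and 3 had values of 5.20, 3.87 and 4.47. With all arrays, NIL*DOG6* was higher than NIL*DOG1* by 1.15 (limma adjusted p = 0.0138). NIL*DOG6* minus NIL*DOG2* was -1.05 and was not called (limma adjusted p = 0.0514). For these pairs of NILs the values are given with all arrays only, and replicate 1 was the highest array of NIL*DOG6*. Against L*er*, NIL*DOG6* differed by -0.19 (limma adjusted p = 0.727), or by -0.53 without its replicate 1 (limma adjusted p = 0.152). With replicates 1 to 3 alone, the differences of *GA20OX2* from L*er* were no longer called in NIL*DOG1* (-1.29, limma adjusted p = 0.0526) and in NIL*DOG3* (-0.85, limma adjusted p = 0.118).

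*GA3OX2* (AT1G80340), a GA 3-oxidase gene of germinating seeds, fell by 0.94 in NIL*DOG1* (3.93 ± 0.44 against 4.87 ± 0.48 in L*er*, SD, n = 5 each, limma adjusted p = 0.0355) and by 1.21 in NIL*DOG3* (3.66 ± 0.28, SD, n = 3, limma adjusted p = 0.0124). In NIL*DOG2* it averaged 4.96 ± 0.17 (SD, n = 3), 0.09 above L*er* (95% interval -0.43 to 0.61). NIL*DOG2*, the line with the high *GA2OX3* level, had no called change in the genes of GA synthesis against L*er*. Only 0.305% of all genes were called in that comparison. Besides *GA20OX2*, uncalled rises there included 0.83 for *GA20OX3* (95% interval 0.14 to 1.53, limma adjusted p = 0.602) and 0.42 for *GA20OX1* (-0.05 to 0.88, limma adjusted p = 0.776). *GA3OX1* (-0.31), *GA20OX4* (-0.015) and *GA3OX4* (-0.003) were lower and uncalled. The median difference of the 14 biosynthesis genes from L*er* was 0.12 in NIL*DOG2*, 0.05 in NIL*DOG6*, -0.13 in NIL*DOG3* and -0.15 in NIL*DOG1*. The call of *GA3OX2* in NIL*DOG1* was lost without L*er* replicate 1, 4 or 5 or NIL*DOG1* replicate 1, 2 or 3 (limma adjusted p up to 0.124), with replicates 1 to 3 alone (0.0565) and in the fit of NIL*DOG1* and L*er* alone (0.113). That in NIL*DOG3* was lost without NIL*DOG3* replicate 3 (limma adjusted p = 0.0767). The call of *GA20OX2* in NIL*DOG3* was lost without L*er* replicate 1 or 4 or any of the NIL*DOG3* arrays (limma adjusted p up to 0.164).

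*GAI* (AT1G14920), which encodes a DELLA repressor of GA signalling, averaged 9.03 ± 0.14 (SD, n = 3) in NIL*DOG6* and 9.73 ± 0.35 (SD, n = 5) in L*er*, a difference of -0.69 (limma adjusted p = 0.0452). Without NIL*DOG6* replicate 1, *GAI* and *RGL2*, another DELLA gene, were the 2 genes of this list called lower in NIL*DOG6*, in a fit that called 8.39% of all genes. *ABI4* (AT2G40220), a transcription factor gene of abscisic acid signalling, had a mean of 7.22 ± 0.40 in NIL*DOG3* and of 7.07 ± 0.38 in NIL*DOG6* (SD, n = 3 each), against 8.20 ± 0.50 (SD, n = 5) in L*er*. It fell by 0.98 in NIL*DOG3* (limma adjusted p = 0.0415) and by 1.13 in NIL*DOG6* (limma adjusted p = 0.0287). Without NIL*DOG6* replicate 1, *PIF1* and *ABI4* were the 2 regulators called lower in NIL*DOG6* in the same fit. The calls of *GAI* in NIL*DOG6* and of *ABI4* in both lines were lost without L*er* replicate 1 or 3. That of *GAI* was also lost without L*er* replicate 2 or NIL*DOG6* replicate 2 or 3 (limma adjusted p up to 0.195), that of *ABI4* in NIL*DOG6* without NIL*DOG6* replicate 2 or 3 (up to 0.158), and that of *ABI4* in NIL*DOG3* without L*er* replicate 4 or NIL*DOG3* replicate 2 or 3 (up to 0.275). Fitted with only the line and L*er*, none of these calls held (limma adjusted p = 0.182 for *GAI*, 0.162 for *ABI4* in NIL*DOG6* and 0.0899 for *ABI4* in NIL*DOG3*).

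**Figure D5:**
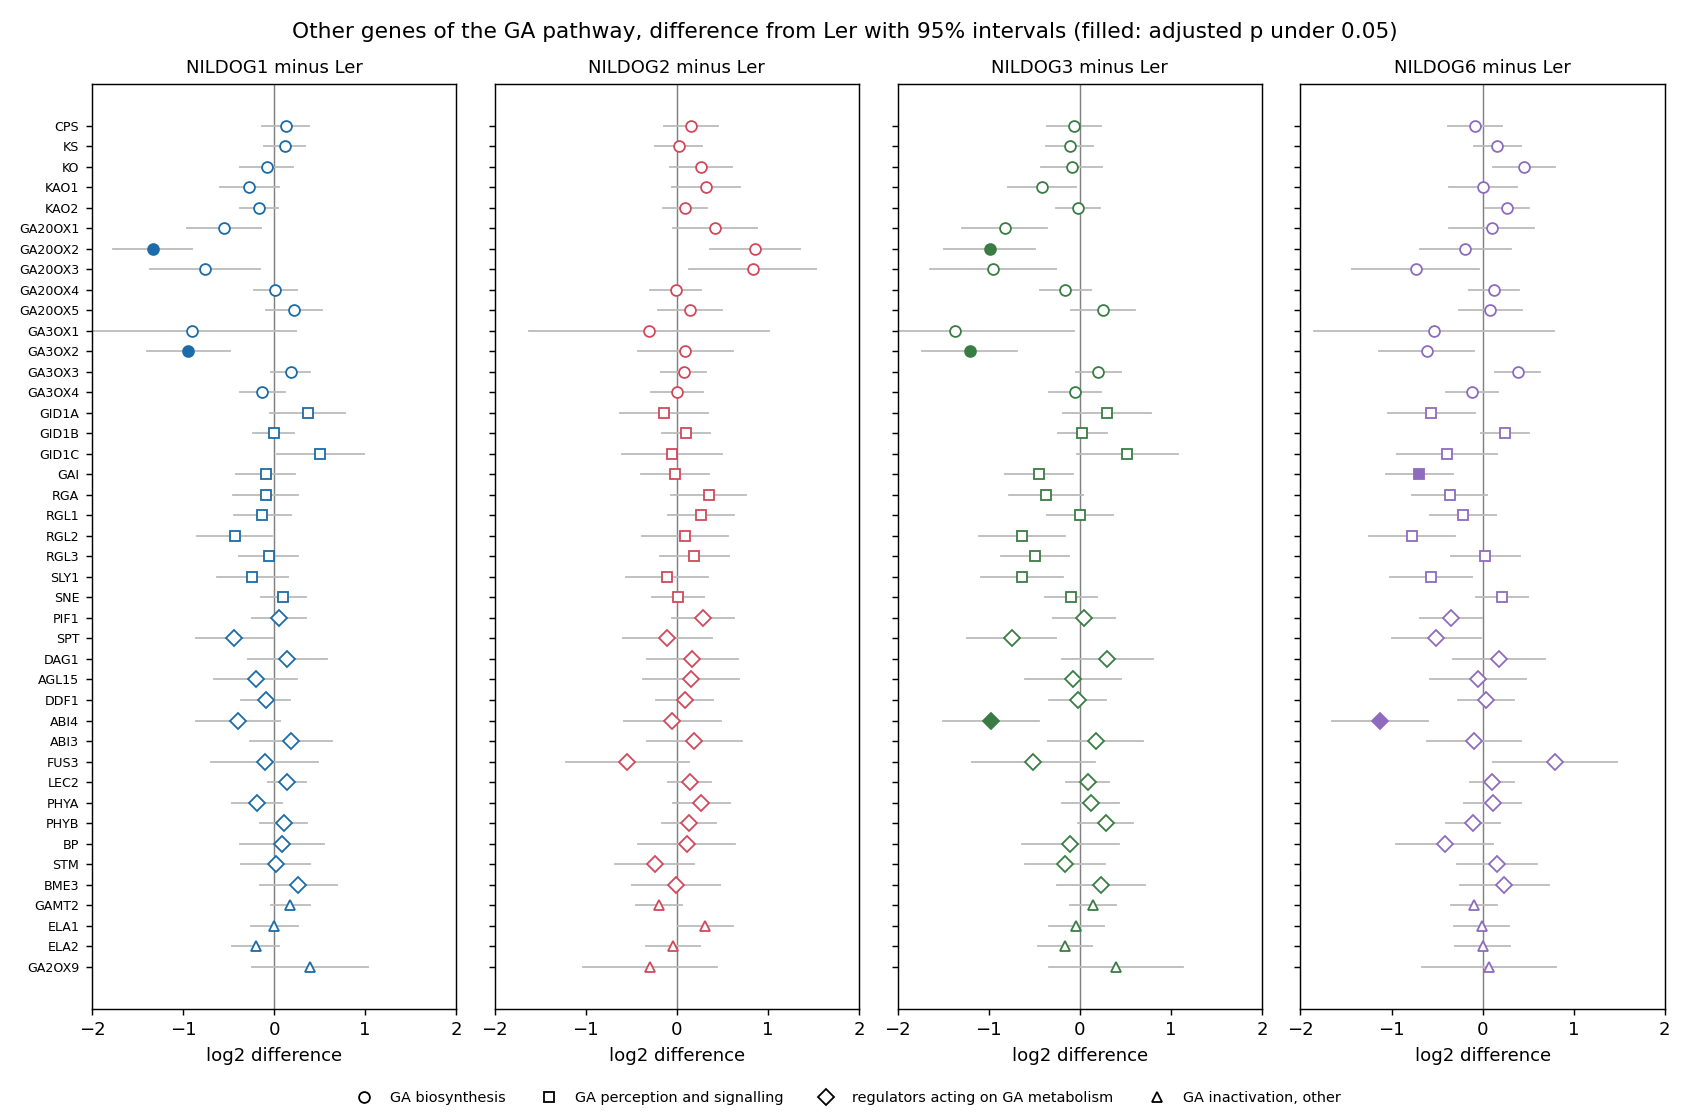
Log2 difference from L*er* (x axis) of the 42 other GA pathway genes (rows, marker shape by list) in each NIL (panels), with 95% intervals of the limma fit; filled symbols passed an adjusted p under 0.05. The filled symbols are *GA20OX2* and *GA3OX2* in NIL*DOG1* and NIL*DOG3*, *ABI4* in NIL*DOG3* and NIL*DOG6* and *GAI* in NIL*DOG6*, all below 0; the axis ends at -2 and 2 and 2 intervals of *GA3OX1* run past it.

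Marker genes of other tissues were compared because bulk seed RNA holds embryo, endosperm and seed coat, and in such samples fewer cells of a type and less RNA per cell cannot be told apart. The mean of the 2 endosperm markers, *EPR1* and *MAN7*, lay between 10.9 and 11.2 in the NIL*DOG2* arrays and between 10.2 and 11.2 in the L*er* arrays. That of the 4 seed coat markers lay between 3.46 and 3.79 in NIL*DOG2* and between 3.3 and 3.72 in L*er*. These ranges overlapped, and none of the 6 genes was called in NIL*DOG2*, where only 0.305% of all genes were; the part of these tissues in the *GA2OX3* level was not tested. Of the 10 seed markers, 0 were called in NIL*DOG2*. The storage protein genes *SESA2* and *SESA4*, which are not among these markers, were called higher there. Their differences from L*er* were 1.14 and 1.58 (limma adjusted p = 0.0378 and 0.0034). *DOG1*, the gene of the *DOG1* locus, was called higher in NIL*DOG1* (4.80 ± 0.55) than in L*er* (3.97 ± 0.31, SD, n = 5 each), with a difference of 0.83 (limma adjusted p = 0.0479). This call lay close to the threshold, and whether it held in the alternatives was not examined.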

How the data were processed

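Transcript levels were measured on ATH1 arrays. The authors normalized the arrays with RMA and deposited log2 values, 1 per gene and array; the version of RMA and the probe annotation are not given in the sources used here. All 19 arrays were used, grouped by genotype from the labels. The labels number 5 replicates of L*er* and NIL*DOG1*; the paper describes 3 per genotype, and all were kept. Replicates were separate bulks of plants, and the number of arrays limits the precision.

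With limma 3.58.1 in R 4.3.3, a mean per genotype was fitted to all 21313 genes without a filter (lmFit, eBayes), followed by the contrasts between genotypes, an F test and Benjamini-Hochberg adjustment over all genes. A gene was called at an adjusted p under 0.05. The model was also run on simulated data in which 200 genes were given a log2 change of 1. The simulated noise was independent between arrays, so differences between replicate sets were not represented. Symbols and gene order followed RefSeq's annotation of TAIR10.1, which placed 21205 genes (99.5%). All 7 chosen GA 2-oxidases are named, together with *GA2OX9*, genes of the GA lists called in a NIL against L*er* and the 3 genes most correlated with *GA2OX3*. *RGL2*, *PIF1*, *SESA2* and *SESA4*, and the run of genes called on chromosome 1, were named after their values were seen. So were the uncalled genes of GA synthesis given for NIL*DOG2*. Members and lists were chosen with earlier results of these data known.

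Alternatives were stricter thresholds, a filter at the 30th percentile of mean level, centring, quantile normalization, a prior trend, weights for arrays, fits restricted to 1 NIL with L*er*, a replicate block, the replicate sets and leaving out each array. After-ripened seeds were not analysed here.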

Additional observations from a re-analysis of the deposited data

Results flagged for a closer look

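In groups of 5 arrays, a value was singled out where its gap to the nearest other array was over 0.71 of the range of the group. Of 22 groups examined (11 genes in NIL*DOG1* and L*er*), 2 had such a value, and chance would give about 1.1. *GA2OX6* was 3.62 in L*er* replicate 1, below the other L*er* arrays (3.88 to 3.97). *GA20OX2* was 3.74 in NIL*DOG1* replicate 4, above the other NIL*DOG1* arrays (3.23 to 3.3).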

How the results depend on the processing

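*GA2OX3* in NIL*DOG2* remained higher in every alternative (1.67 to 2.04; 1.74 to 2.04 when 1 array was left out), and it was called in all of them except at an adjusted p under 0.0001 (limma adjusted p up to 0.00439). At that threshold 0 GA 2-oxidase genes were called in NIL*DOG2*, 0 in the F test and 0 between the NILs. With replicates 1 to 3 only, and likewise with a term for replicates 4 and 5, the F test called 2 (9.17% and 12.5% of all genes) and the pairs of NILs gave 5 calls, the added ones being *GA2OX6*. With array weights there were 4, with *GA2OX6* higher in NIL*DOG1* than in NIL*DOG2* (0.60, limma adjusted p = 0.0393), and *GAI* in NIL*DOG6* was not called (0.0524). *GA3OX2* in NIL*DOG1* was not called after quantile normalization (0.0520), nor *GA20OX2* in NIL*DOG3* with the term for replicates 4 and 5 (0.0526). Between replicate sets, 0 to 1 were called when 1 array was left out, with *GA2OX3* called without L*er* replicate 1. The filter on low values removed *GA2OX1*, *GA2OX7* and *GA2OX8*, which have no value under it. With 10 neighbours on each side, 0% of those of *GA2OX2* were called in NIL*DOG3*.

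Differences from L*er* that changed sign were all uncalled and near 0, and the cause was not tested. With arrays centred on their medians, *GA2OX2* and *GA2OX4* in NIL*DOG1* were 0.015 and 0.019 and *GA2OX1* and *GA2OX3* in NIL*DOG6* were 0.10 and 0.089; this centring moved the median of all genes by up to 0.12. *GA2OX2* in NIL*DOG1* was 0.0087 after quantile normalization, and *GA2OX4* there 0.036 with array weights. With replicates 1 to 3 only, *GA2OX8* was -0.0063 in NIL*DOG2* and -0.0019 in NIL*DOG3*, and *GA2OX1* -0.025 in NIL*DOG3*. With 1 array left out, ranges that crossed 0 were -0.12 to 0.048 (*GA2OX2*), -0.13 to 0.028 (*GA2OX4*) and -0.039 to 0.14 (*GA2OX7*) in NIL*DOG1*; -0.0042 to 0.21 (*GA2OX7*) in NIL*DOG2*; -0.0057 to 0.11 (*GA2OX1*), -0.16 to 0.21 (*GA2OX6*) and -0.037 to 0.14 (*GA2OX8*) in NIL*DOG3*; and -0.13 to 0.10 (*GA2OX1*), -0.063 to 0.25 (*GA2OX2*) and -0.26 to 0.13 (*GA2OX3*) in NIL*DOG6*.

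The main fit did not pair arrays by replicate number. Deviations of same-numbered arrays from their genotype means correlated between -0.30 and 0.45. These values alone do not show whether the numbers pair the arrays. With the replicate number as a block, *GA2OX3* in NIL*DOG2* was 1.67 (limma adjusted p = 0.00109) and no GA 2-oxidase call changed, while *GA20OX2* in NIL*DOG3* was not called (0.0656). Under this block, and likewise with the term for replicates 4 and 5, the value of *GA2OX8* was -0.017 for NIL*DOG6*, -0.067 for NIL*DOG3* and -0.071 for NIL*DOG2*, *GA2OX6* was -0.055 in NIL*DOG3* and *GA2OX1* was 0.020 in NIL*DOG6*.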
